A study of Mus musculus with 12 samples.

Results

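The tumors described here are the MC38 tumors of CC075 F1 mice, compared between anti-PD-1 (aPD1) and isotype control antibody. Their cells were chosen by the host strain and antibody that the deposited cell table gives, and they number 10491 of 93126 cells (5094 isotype, 5397 aPD1) in 6 of the series' 48 tumors, 1 tumor per mouse. The hosts were female F1 mice, 8 to 12 weeks old, from a cross of C57BL/6J (B6) with CC075, an inbred line of the Collaborative Cross. MC38 is a colon carcinoma line of B6 origin, and they were injected under the skin. When tumors measured 75 to 110 mm3 the mice received a single 200 µg dose of the aPD1 antibody (29F.1A12) or of the isotype antibody (2A3), and tumors were taken 48 h later. Frozen tumor cells were sorted, mixed at 90% CD45+ and 10% CD45- cells and sequenced by droplet 5′ single-cell RNA-seq in pools of 4 tumors. The 3 CC075 pairs lie in pools 9, 10 and 11, each holding 1 isotype and 1 aPD1 tumor of CC075 beside a pair of another host, CC036 in pools 9 and 10 and CC080 in pool 11. The other hosts used for comparison were B6 and the F1 mice of CC001, CC002, CC007, CC036, CC079 and CC080, given the same antibodies at the same time. MC38 is 1 transplanted line, the F1 mice of a strain are genetically alike, and the sort fixed the ratio of CD45+ to CD45- cells, so a share below is a share of sorted cells.

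PD-1 is an inhibitory receptor on T cells, and antibodies that block it release T cell activity, including the secretion of interferon-γ (IFN-γ). Macrophages answer IFN-γ with MHC class II, guanylate-binding proteins and the T cell attracting chemokines CXCL9 and CXCL10, whereas SPP1 (osteopontin) marks macrophages of another state often found in tumors. Macrophages in tumors also take up and recycle lipids and iron, and some of them divide in place.

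Tumors of a pool were told apart by an oligonucleotide tag (hashtag) bound to the cells. Antibody and tag coincided in CC075, and the tags are therefore shown.
Isotype tag C0301: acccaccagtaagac
aPD1 tag C0302: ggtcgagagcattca
All 3 CC075 isotype tumors carried the tag C0301 and all 3 aPD1 tumors C0302, so within CC075 alone tag and antibody cannot be told apart. The same tags lay on the same sides in 9 pairs of 4 other hosts, which are set beside CC075 where a level is compared. No cell stood in a library that its sample's label did not name. Of the 10453 distinct cell barcodes of CC075, 38 occurred in 2 or more libraries.

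The number of cells per isotype tumor was 1580, 1899 and 1615 in pools 9, 10 and 11, and that per aPD1 tumor was 1911, 1860 and 1626. Total counts of molecules (UMIs) per tumor ran from 5591651 to 9338916. The 27 deposited clusters were named from marker genes, and those with the monocyte and macrophage markers are called macrophages below. The median macrophage held 3441, 3699 and 4763.5 UMIs in the isotype tumors and 3218, 3338 and 3131 in the aPD1 tumors. Macrophages were thus shallower in all 3 aPD1 tumors with no overlap, whereas the medians of T and NK cells were higher in aPD1, at 2378.5, 2528 and 2930.5 against 2030, 1824 and 2353.5. Main gene results were therefore also computed from cells of 2000 to 5000 UMIs, a range chosen after the data were seen. Those values are given for the main genes. The range narrowed the difference in macrophage depth but did not remove it. Medians within it were 3333, 3368 and 3430 UMIs in isotype and 3205, 3253 and 3206 in aPD1 macrophages. In cluster 26 they were 3622, 3368 and 3716 against 3647.5, 3270.5 and 2992. The check was run for macrophages, T and NK cells and cluster 26 only. Genes of other single clusters were not checked for depth.

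T and NK cells made up a higher share of cells after aPD1 in 3 of 3 CC075 pairs, but the pairs differed widely. In pools 9, 10 and 11 the share was 17.2%, 4.42% and 8.92% in the isotype tumors and 33.5%, 8.28% and 9.35% in the aPD1 tumors. The groups overlapped, and the pool 9 pair gave most of the difference. The mean difference was 6.88 points ± 8.37 (SD, n = 3 pairs; exact sign-flip permutation test, two-sided, p = 0.25, the smallest that 3 pairs allow), and it was 2.14 points without pool 9. Macrophages took 70.9%, 77.9% and 75.7% of isotype cells and 49.97%, 79.6% and 75.2% of aPD1 cells. Here too pool 9 decided the value, since the mean difference of -6.54 points ± 12.5 (SD, n = 3 pairs; exact permutation p = 0.75) became 0.645 points without it. Migratory dendritic cells, the Ccr7 and Fscn1 expressing cells that carry antigen to lymph nodes, were at 0.317%, 1.42% and 2.11% in isotype and 2.56%, 1.45% and 2.34% in aPD1 tumors. Their share was higher in 3 of 3 pairs, with a mean difference of 0.836 points, nearly all of it from pool 9 (exact permutation p = 0.25). Differences of the remaining classes averaged 0.288 points for cDC1, -0.356 for cDC2, 0.0334 for plasmacytoid dendritic cells, -0.280 for fibroblasts and -0.197 for granulocytic cells, each of mixed sign between pairs.

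**Figure D1:**
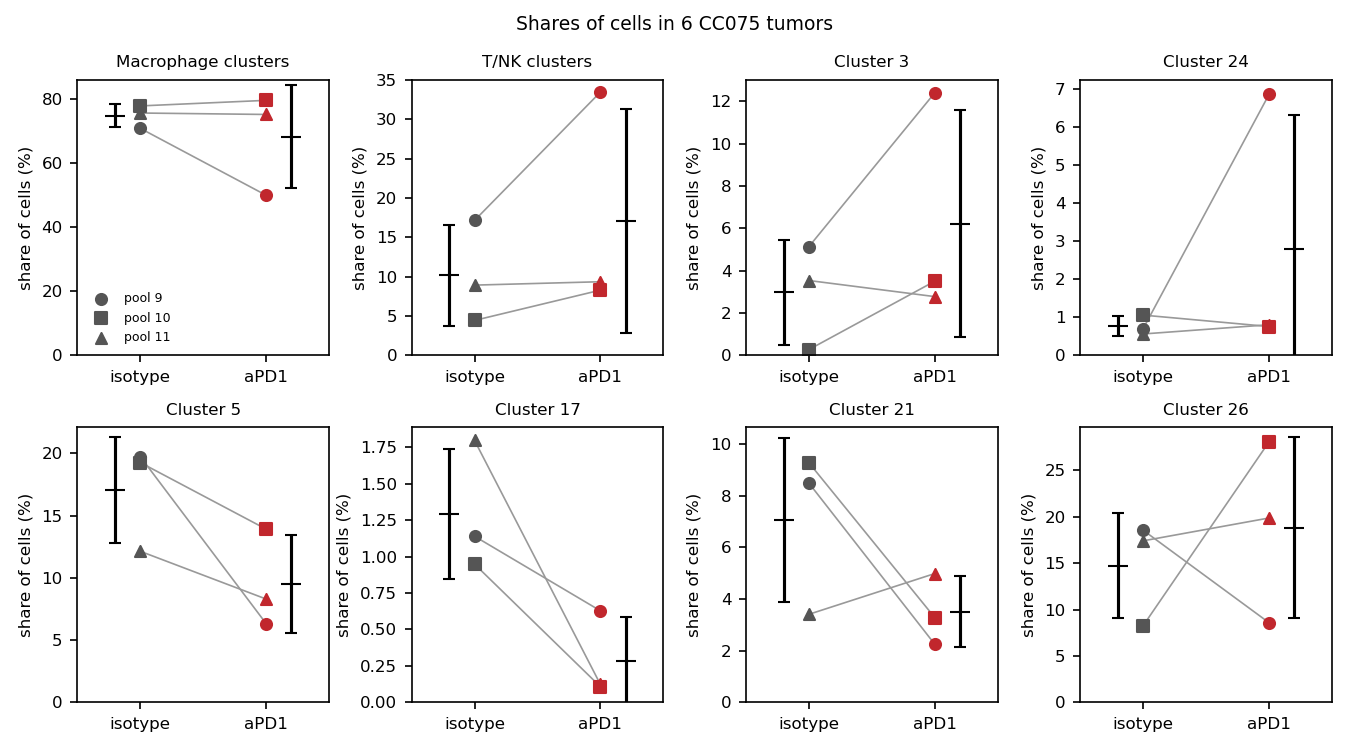
Shares of cells (%, y axes from 0) of the macrophage clusters, the T/NK clusters and 6 single clusters in the 3 isotype (grey) and 3 aPD1 (red) CC075 tumors, with lines joining the pair of a pool. Bars beside the points give the mean ± SD of 3 tumors, cut at 0. The T/NK lines all climb, steeply in pool 9 (17.2% to 33.5%), while cluster 26 moves in opposite directions in pools 9 and 10.

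Among single clusters none of 27 passed the test of a change in share (0.0% called; edgeR on cells per cluster, lowest adjusted p = 0.447), which with 3 pairs does not show that shares were alike. At an unadjusted p under 0.05 there were 3 clusters with edgeR and 4 with DESeq2, which also called 0. The edgeR clusters were 17, 5 and 25, the last with very few cells. Cluster 25 held 2, 6 and 1 isotype cells and 0, 1 and 0 aPD1 cells, lower in share without overlap. Cluster 17, macrophages led by replication histone genes, held 1.14%, 0.948% and 1.80% of isotype cells and 0.628%, 0.108% and 0.123% of aPD1 cells, with no overlap (log2 difference -2.38 ± 0.96 SE, adjusted p = 0.447). The histone genes Hist1h1a, Hist1h1b and Hist1h1d, among its 10 leading genes, were also lower in the macrophage sums described below, so its size between groups is not independent of genes that define it. Cluster 5, macrophages led by Clec5a, Cfb and Cxcl9, was at 19.8%, 19.3% and 12.1% in isotype and 6.33%, 13.9% and 8.30% in aPD1 tumors. It was lower in each pair, but the groups overlapped (adjusted p = 0.447). Cluster 24, NK cells led by Ncr1 and Klra8, stood at 6.86% in the aPD1 tumor of pool 9 and between 0.557% and 1.05% in the other 5 tumors. Cluster 3, CD8 T cells, was at 5.13%, 0.263% and 3.53% in isotype and 12.4%, 3.50% and 2.77% in aPD1 tumors, higher in 2 of 3 pairs. Clusters 3 and 13 together, the second of which is led by Il2, Ifng and Xcl1, differed by 2.10 points ± 3.29 (SD, n = 3 pairs; exact permutation p = 0.5), and by 1.07 to 3.996 points when 1 pair was left out.

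A small share of genes passed the test in the macrophages of CC075 48 h after aPD1. Counts were summed per tumor and fitted with edgeR, each pair having its own level and each strain its own antibody effect. The sum pools 10 clusters whose mix differed between tumors, and the part of the mix in a change was not tested. Cluster 4, led by Adgre4, Ace and Chil3, for example held 2.47%, 8.95% and 7.55% of isotype cells and 4.34%, 2.85% and 1.48% of aPD1 cells. Of 13010 genes tested, 285 (2.19%) passed an adjusted p of 0.05, of which 187 rose (1.44%) and 98 fell (0.753%). Scaling by library size alone gave 295 genes with 129 that rose, so the share that rose was 65.6% in the main fit and 43.7% there. The count rested on all 3 pairs, being 180 without pool 9, 24 without pool 10 and 14 without pool 11, and it was 62 without the pairing by pool. DESeq2, and edgeR without the filter on low counts, gave far more genes, as listed in the closing section. From cells of 2000 to 5000 UMIs, 26 genes passed, 20 of them shared with the main 285. Values below are CPM, that is counts per 1000000 after TMM scaling, in pools 9, 10 and 11, and fold changes are log2 of aPD1 over isotype with their SE. The SE and p rest on a spread estimated from the tumor pairs of all hosts in the fit. They are not the spread of the 3 CC075 pairs alone.

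Cpne8, which encodes a copine, a calcium-dependent membrane-binding protein (chromosome 15, 90487482 to 90679432, minus strand, GRCm38), fell the most of the named genes. Its macrophage level was 32.0, 12.7 and 14.8 CPM in isotype and 1.38, 2.67 and 2.68 CPM in aPD1 tumors. The lowest isotype tumor stood far above the highest aPD1 tumor, and 348 isotype UMIs faced 33 aPD1 UMIs. The difference was -2.94 ± 0.40 (adjusted p = 0.00167), and -3.43 with an adjusted p of 0.0125 in the cells of 2000 to 5000 UMIs.

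Other cell classes were read for the same gene. In the T and NK cells Cpne8 was at 197.5, 49.6 and 70.8 CPM in isotype and 6.12, 4.21 and 3.30 CPM in aPD1 tumors, a difference of -4.68 ± 0.47 (adjusted p = 1.55e-07). Summed over the 3 tumors of a group and scaled by total UMIs, cDC2 held 19.3 CPM in isotype and 1.07 CPM in aPD1, migratory dendritic cells 25.7 and 1.79 CPM, cDC1 26.6 and 9.34 CPM, and plasmacytoid dendritic cells 5 UMIs of 154168 against 0 of 184887. These sums rest on few cells and were not tested. Cluster 20, which has no class, held 25 UMIs of 888837 in isotype and 0 of 485160 in aPD1. Fibroblasts differed from these, with 36 UMIs in 38 isotype cells (122.3 CPM) and 26 UMIs in 24 aPD1 cells (187.1 CPM). Of the aPD1 UMIs, 13 came from 5 cells of pool 10 (477.3 CPM), beside 140.4 and 110.7 CPM in pools 9 and 11. Isotype fibroblasts were at 90.8 and 135.7 CPM in pools 10 and 11, and the pool 9 isotype tumor had none. Over all cells of a tumor, Cpne8 stood at 57.9, 17.5 and 21.2 CPM in the isotype tumors of CC075 and between 3.54 and 4.47 CPM in the aPD1 tumors. The CC036 and CC080 tumors in the same 3 libraries lay between 2.73 and 9.06 CPM, whichever antibody they received. It was thus the CC075 isotype tumors that stood apart, in each of the 3 libraries. In the 9 isotype tumors of other hosts with the same tag, macrophage Cpne8 lay between 2.68 and 6.58 CPM (scaled by library size), below all 3 CC075 isotype tumors (12.6 to 34.3 CPM).

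Of the 10 named genes that rose, 6 are described one by one. Tbc1d4, a Rab GTPase-activating protein of insulin-stimulated glucose transporter traffic, was at 13.7, 12.6 and 14.7 CPM in isotype and 33.8, 38.4 and 43.1 CPM in aPD1 tumors. All aPD1 tumors lay above all isotype tumors, as they did for each of the 10, which were chosen by low p and 1 direction in all pairs (background 11.6% of genes tested, and 38.5% had 3 pairs in 1 direction), and the difference of 1.49 ± 0.21 had an adjusted p of 0.00167. Hfe, whose protein limits iron uptake, was at 13.7, 17.98 and 21.7 CPM against 41.2, 43.9 and 42.3 CPM (1.26 ± 0.23, adjusted p = 0.0132). The aPD1 levels of Hfe were nearly equal in the 3 tumors. Zfp36l1, which directs decay of mRNAs with AU-rich elements, was at 177.9, 148.3 and 188.8 CPM against 326.5, 381.6 and 379.6 CPM (1.08 ± 0.20, adjusted p = 0.0134). Cd300a, an inhibitory receptor of myeloid cells, was at 47.0, 77.9 and 63.5 CPM against 125.9, 151.1 and 143.5 CPM (1.18 ± 0.22, adjusted p = 0.0144). Rilpl2, a partner of Rab GTPases, was at 43.2, 49.6 and 58.0 CPM against 139.2, 103.9 and 111.8 CPM (1.23 ± 0.22, adjusted p = 0.0132). Dclre1c, the nuclease Artemis of DNA end joining, was at 75.9, 68.6 and 77.6 CPM against 161.1, 133.4 and 182.6 CPM (1.09 ± 0.19, adjusted p = 0.00822). Smaller rises were those of N4bp2l1 (1.03), the transcript 2410006H16Rik (0.87), Leprot (0.66) and Gdpd3 (0.64). Tbc1d4 passed without any 1 of the 3 pairs, Dclre1c without pool 9 or 10, and both passed from cells of 2000 to 5000 UMIs, as did Hfe, Rilpl2, Zfp36l1, 2410006H16Rik and Cd300a. Of the 20 named genes in both directions, 16 passed without pool 9 (not Leprot, Rilpl2, Cd300a and Pvt1), 5 without pool 10 and 6 without pool 11. From the 6 CC075 tumors alone 11 of the 20 passed, and without the pairing by pool 16 did (not Gdpd3, Cd300a, Pdrg1 and Myc).

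After Cpne8, Myc was among the named genes that fell. Myc, a transcription factor of growth (chromosome 15, 61985391 to 61990374, plus strand), was at 39.2, 36.0 and 30.1 CPM in isotype and 16.3, 10.4 and 14.98 CPM in aPD1 tumors. No tumor overlapped, here and for each of the 10 named genes that fell (background 9.39%), and the difference was -1.36 ± 0.28 (adjusted p = 0.0190). Pvt1, the long noncoding RNA that lies next to Myc (62037986 to 62378096, plus strand), was at 103.3, 78.4 and 79.8 CPM against 49.8, 37.9 and 49.9 CPM (-0.92 ± 0.19). Srm, spermidine synthase, was at 27.6, 45.03 and 50.2 CPM against 17.99, 12.7 and 19.9 CPM (-1.29 ± 0.25, adjusted p = 0.0144). Ppan, a factor of ribosome assembly, was at 25.5, 22.1 and 22.3 CPM against 10.8, 11.0 and 9.17 CPM (-1.17 ± 0.20, adjusted p = 0.00937). Ccnd2, cyclin D2, was at 113.8, 82.2 and 53.0 CPM against 51.2, 38.1 and 27.1 CPM (-1.08 ± 0.18, adjusted p = 0.00610). Within each pool the aPD1 level of Ccnd2 was near the same fraction of its isotype partner, although isotype levels themselves differed between pools. The other named genes that fell were Kti12 (-1.15), which acts in tRNA modification, Tmem273 (-1.03), Dkc1 (-0.95), the pseudouridine synthase dyskerin, and Pdrg1 (-0.51). Of the 10 that fell only Cpne8 passed from cells of 2000 to 5000 UMIs, where Myc was at -1.27 (adjusted p = 0.0963), Ccnd2 at -1.09 (0.0703), Ppan at -1.10 (0.190) and Srm at -0.78 (0.151). The differences of Myc, Ccnd2 and Ppan were thus about as large there as in all cells, and that of Srm was smaller.

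**Figure D2:**
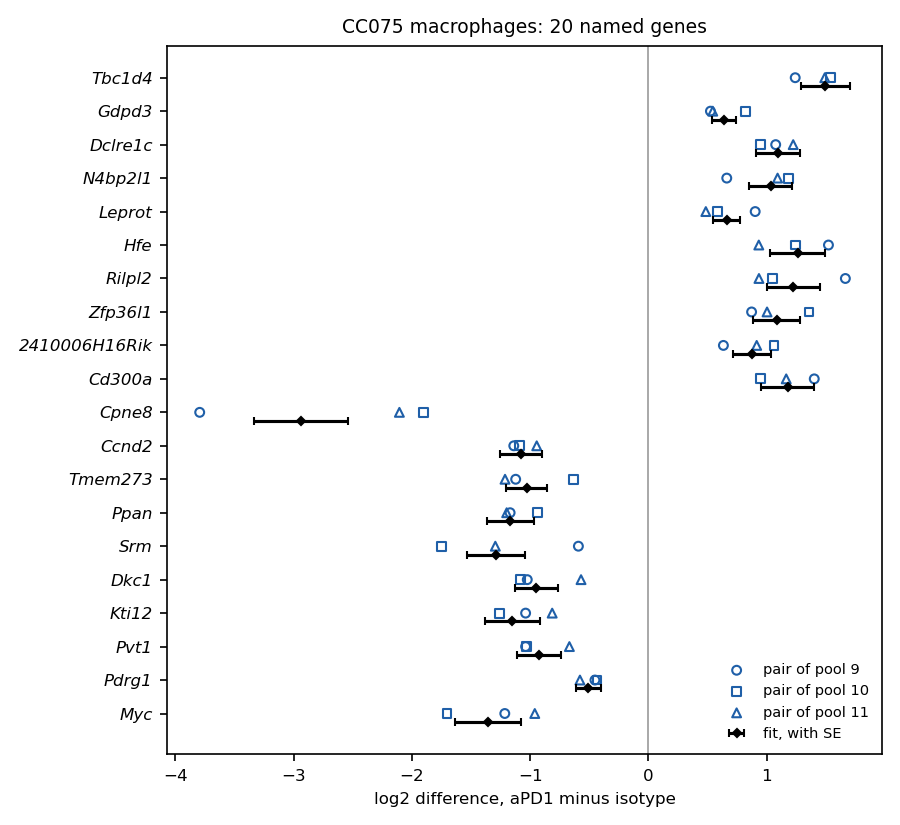
Log2 differences of aPD1 minus isotype (x axis) in CC075 macrophage sums for the 20 named genes, with open symbols for the 3 pairs and a diamond with a bar for the edgeR estimate ± SE. All pairs lie on the same side of 0 for each gene, as the rule that chose the genes required, and Cpne8 has the widest spread between pairs.

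Few members of the gene lists passed in the pooled macrophages. Ccl5, a chemokine of T cells and macrophages, was the 1 gene of the IFN-γ signature (14 of its 18 members passed the filter on low counts) that rose, from 339.2, 499.5 and 123.2 CPM to 1706, 1791 and 755.8 CPM (2.26 ± 0.49, adjusted p = 0.0224). T and NK cells express Ccl5 as well (1935 to 3379 CPM in isotype and 1548 to 3492 CPM in aPD1), and the summed T/NK markers in the macrophage sums ranged from 4.98 to 12.2 CPM in isotype and from 6.96 to 62.0 CPM in aPD1 tumors, with none of the 8 markers at 0 throughout. The part of T cell RNA in the Ccl5 values was not tested. Granulocytic markers in the same sums were at 114.4 to 119.7 CPM in isotype and 164.5 to 178.9 CPM in aPD1 tumors, without overlap. That list holds Gsr and Csf3r, at 60.5 and 31.1 CPM in cluster 2 macrophages over all tumors, beside 17.5 for S100a8 and 1.84 for S100a9. It thus cannot tell granulocyte RNA from genes that macrophages express. H2-Aa, a chain of MHC class II, was at 3262, 3563 and 2843 CPM against 5272, 6213 and 4835 CPM, and H2-Eb1 at 2565, 2783 and 2482 CPM against 4417, 4941 and 4002 CPM. Neither group overlapped, but the adjusted p was 0.142 and 0.112. The median of the signature was 0.47, beside 0.02 over all genes tested, and that of the 12 MHC class II genes was 0.34 with none passing. Cxcl9 was at 1177, 903.8 and 1065 CPM against 1575, 1528 and 694.5 CPM, lower in pool 11 and higher in the other pools. The 19 type I interferon genes (median -0.02) and the 15 guanylate-binding proteins and GTPases (median 0.21) had 0 members passing, and the 24 lipid-associated and resident macrophage genes none (median 0.21).

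All 21 cell cycle genes had fitted differences below 0 in the macrophage sums, with a median of -1.04, though only 1 passed. That gene, Mcm2, a subunit of the replicative helicase, was at 16.02, 13.9 and 23.3 CPM in isotype and 10.2, 4.34 and 5.37 CPM in aPD1 tumors (-1.47 ± 0.37, adjusted p = 0.0396). From cells of 2000 to 5000 UMIs the median was -0.11 with 13 of 21 members below 0 and 0 passing. Tnfrsf1b, the TNF receptor 2 listed among regulatory T cell genes, also rose in macrophages (0.77 ± 0.20, adjusted p = 0.0457).

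Of the 7 clusters tested singly, most genes passed in cluster 26, an order that rests on pool 11, without which 54 genes passed here and 70 in cluster 2. Cluster 26 holds macrophages led by Cxcl13, Ch25h, Fcrls, Ms4a7 and the complement genes C1qa, C1qb and C1qc. It held 293, 157 and 281 isotype cells and 164, 522 and 323 aPD1 cells, and its share was 18.5%, 8.27% and 17.4% against 8.58%, 28.1% and 19.9%, without a common direction. Of 12046 genes tested, 743 (6.17%) passed, 392 up (3.25%) and 351 down (2.91%), and the split was 52.8% up in the main fit and 38.6% with library size alone. Leaving out the pair of pool 9, 10 or 11 gave 861, 232 or 54 genes, and leaving out the pairing by pool gave 335. The median cell held 4298, 5331 and 8280 UMIs in isotype and 4344, 3945 and 2945 UMIs in aPD1 tumors, and from cells of 2000 to 5000 UMIs 102 genes passed, 75 of them shared. Of the 187 macrophage genes that rose, 112 (59.9%) rose here too, 28.6% of those that rose in cluster 26, but the cells of cluster 26 are part of the macrophage sums.

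Pltp had the lowest p of the named genes that rose. Pltp, phospholipid transfer protein, was at 35.3, 64.1 and 102.4 CPM in isotype and 160.2, 185.4 and 313.7 CPM in aPD1 tumors (1.74 ± 0.24, adjusted p = 0.000272). Selenop, a selenium transport protein, was at 226.5, 312.7 and 321.6 CPM against 616.6, 874.7 and 846.3 CPM (1.44 ± 0.21, adjusted p = 0.000412). Every aPD1 tumor was above every isotype tumor for both, as for all 10 named genes that rose (background 10.9%), and in the cells of 2000 to 5000 UMIs Selenop was at 1.57 (adjusted p = 0.000355) and Pltp at 1.19 (adjusted p = 0.0499). Rilpl2 rose by 1.502, Cd300a by 1.48 and Gdpd3 by 0.97, each also passing in the restricted cells. Aph1c, a subunit of γ-secretase, rose from 23.3, 19.0 and 19.1 CPM to 60.3, 56.9 and 48.7 CPM (1.42 ± 0.22), Fam214a by 1.77 and Gm5150 by 1.25. In the restricted cells Gm5150 passed (1.28, adjusted p = 0.0293), whereas Aph1c, at 1.12 (adjusted p = 0.178), and Fam214a, at 1.72 (adjusted p = 0.054), did not. Apoe, the lipid carrier apolipoprotein E, was at 4079, 3706 and 3075 CPM against 5009, 8736 and 6436 CPM (0.87 ± 0.23, adjusted p = 0.0234). Apoe and Vegfa were the 2 of 24 lipid-associated and resident macrophage genes that rose, none fell, and the list's median was 0.14 beside 0.00 over all genes tested. For Apoe and Vegfa values in the restricted cells are not given.

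Among 19 type I interferon genes 6 rose (Ifit1, Ifit2, Ifit3, Oas2, Oasl1, Stat2) and 0 fell, 18 had differences above 0, and the median was 0.70 beside 0.00 over all genes tested. Ifit3, which restrains viral RNA, was at 26.8, 19.0 and 19.97 CPM against 51.3, 31.3 and 62.9 CPM (1.17 ± 0.27, adjusted p = 0.00964), and Ifit2 at 30.3, 16.04 and 28.5 CPM against 79.5, 54.1 and 80.5 CPM (1.52 ± 0.25, adjusted p = 0.000985). In the cells of 2000 to 5000 UMIs none of the 19 passed and the median was 0.32. The MHC class II list had 3 of 12 members rise. H2-Aa was at 2831, 2545 and 2594 CPM against 5062, 6397 and 5528 CPM (1.09 ± 0.32, adjusted p = 0.0394), H2-Eb1 rose by 1.06, and Ciita, the class II transactivator, was at 43.1, 44.1 and 38.2 CPM against 87.2, 129.7 and 99.8 CPM (1.33 ± 0.33, adjusted p = 0.0154). In the restricted cells 10 members were tested, of which H2-Aa (1.21, adjusted p = 0.0134), H2-Eb1 (1.20) and H2-Ab1 passed, while Ciita, at 1.23 (adjusted p = 0.104), did not. Gbp8 and Gbp2b were the 2 of 15 guanylate-binding proteins and GTPases that rose, and none of 16 MHC class I and peptide loading genes passed (median 0.12).

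Ccl5 rose from 273.8, 185.4 and 63.3 CPM to 1778, 1860 and 845.5 CPM (3.24 ± 0.56, adjusted p = 0.00142). It stayed at 2.54 (adjusted p = 0.000355) in the restricted cells. Immediate early genes, which answer stimuli and cell handling within minutes, rose in part, namely Fos (0.80), Fosb (1.04), Junb (1.14) and Dusp1 (0.75) of 15 members. Junb was at 427.6, 578.3 and 558.3 CPM against 1109, 1011 and 1314 CPM (adjusted p = 0.00275). Il1b (1.08), Ptgs2 (1.25) and Thbs1 (1.66) rose among 21 inflammatory monocyte genes measured while the chemokine Ccl7 fell (-0.94, adjusted p = 0.0483), and the list's median was -0.13. Tnfrsf1b rose by 1.14, Il15 by 0.99 and Il18bp, the IL-18 binding protein, by 1.25. Apart from Ccl5, the genes of this paragraph are given from all cells only, without their values in the restricted cells.

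Of 21 cell cycle genes 13 fell and 0 rose, all 21 differences were below 0, and the median was -1.42. Mki67, the antigen Ki-67 of dividing cells, was at 79.0, 75.2 and 90.1 CPM in isotype and 25.6, 36.6 and 15.9 CPM in aPD1 tumors (-1.63 ± 0.36, adjusted p = 0.00823). Birc5, survivin, was at 69.9, 84.2 and 138.1 CPM against 24.4, 51.2 and 20.97 CPM (-1.56 ± 0.33), and Lig1, the ligase of replicating DNA, at 34.6, 44.1 and 59.9 CPM against 12.8, 23.2 and 10.9 CPM (-1.53 ± 0.29). No tumor overlapped for these 3 genes (background 10.3% of genes tested with all aPD1 tumors lower). In the cells of 2000 to 5000 UMIs 0 of 21 passed and the median was -0.55, with Mki67 at -0.85 (adjusted p = 0.404). How many dividing cells the UMI range left out was not tested. Myc was at 46.6, 50.1 and 41.2 CPM against 19.2, 10.2 and 15.9 CPM (-1.69 ± 0.31, adjusted p = 0.00207, and 0.0606 in the restricted cells), and Ccnd2, at -1.47 in all cells, was at -1.86 (adjusted p = 0.00311) in the restricted cells. Nop58, Ebna1bp2, Nop16 and Tcof1 fell by 1.26, 1.05, 1.23 and 0.79. Each is known from ribosome assembly, for which no gene list was counted, so that members that did not fall are not accounted for. Msr1, a scavenger receptor, fell by 0.79. In the restricted cells none of those 4 genes passed, at -0.87, -1.02, -0.97 and -0.73 (edgeR adjusted p = 0.0941 to 0.397), nor did Birc5 (-1.46, adjusted p = 0.235) or Lig1 (-0.37, adjusted p = 0.842). Of the 20 genes named by rule in this cluster, all 20 passed without pool 9, 19 without pool 10 (not Myc) and 15 without pool 11, where Nop58, Ebna1bp2, Lig1, Ybx3 and Tacc3 did not. In the cells of 2000 to 5000 UMIs 9 of those 20 passed and 11 did not.

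**Figure D3:**
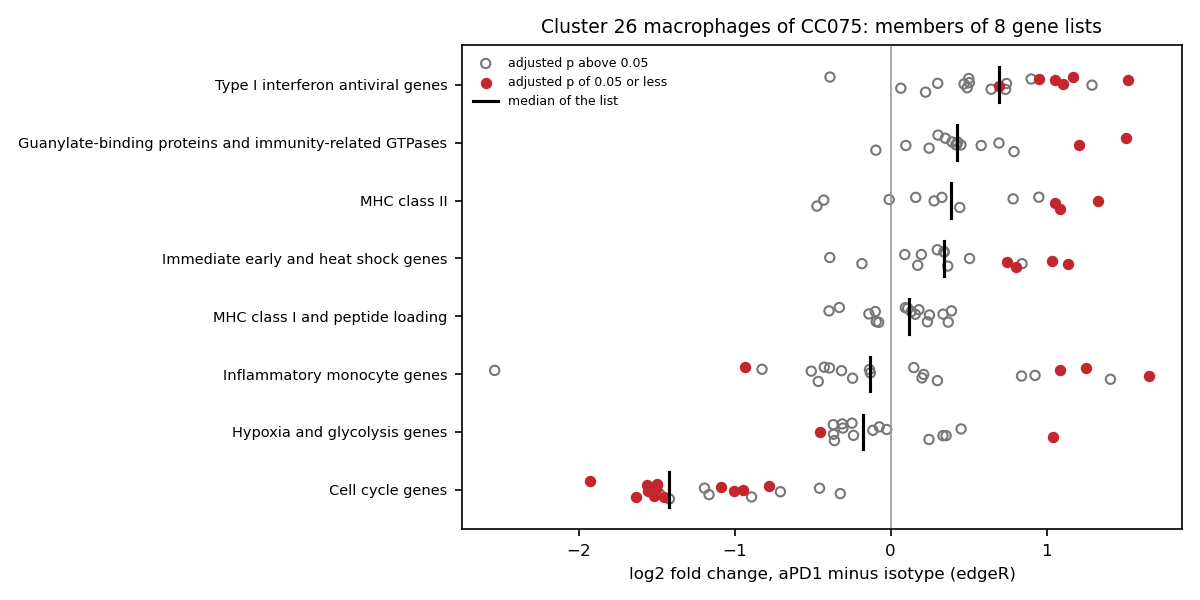
Log2 fold changes of aPD1 over isotype (x axis, edgeR) in cluster 26 of CC075 for each measured member of 8 gene lists, filled red where the adjusted p was 0.05 or less, with the median as a black bar. The cell cycle list lies wholly below 0 (median -1.42) and 18 of 19 type I interferon genes lie above it (median 0.70).

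Promoters of genes that moved in cluster 26 and the pooled macrophages were read for short motifs, 250 bases before to 50 after the start, from RefSeq (GRCm38.p6). The interferon-stimulated response element was searched as GAAA, any 2 bases and GAAA again, and the E-box, which MYC and related factors bind, as CACGTG, on both strands. The first occurred in 10.7% of 319 promoters of genes that rose in cluster 26, in 2.05% of 293 that fell, in 3.41% of 9343 tested and in 3.49% of all 27025 promoters. In the macrophage sums it occurred in 6.0% of promoters of genes that rose and 2.63% of those that fell, beside 3.36% of those tested. CACGTG occurred in 18.4% of 76 promoters of genes that fell in the macrophage sums, in 11.3% of 150 that rose and in 10.3% of 9937 tested, and in 13.7% of those that fell in cluster 26 beside 10.5% of those tested. Of 3 further motifs, TTCNNNGAA occurred in 15.8% of the promoters of genes that fell in macrophages (12 of 76) beside 7.08% of those tested, but in cluster 26 in 7.85% of those that fell beside 7.0%. CCGGAAG occurred in 26.3% of those that fell in macrophages beside 18.9%, while in cluster 26 it occurred in 9.4% of those that rose beside 19.7%. TGACGTCA occurred in 3.95% of those that fell in macrophages beside 3.22%. These shares describe letters in the window, not bound sites. Ifit3 and Selenop, which rose, and Lig1 and Mdn1, which fell, are shown with their matches in capitals, at chr19:34583279-34583578, chr15:3270517-3270816, chr7:13276925-13277224 and chr4:32656869-32657168, all on the plus strand.
Ifit3: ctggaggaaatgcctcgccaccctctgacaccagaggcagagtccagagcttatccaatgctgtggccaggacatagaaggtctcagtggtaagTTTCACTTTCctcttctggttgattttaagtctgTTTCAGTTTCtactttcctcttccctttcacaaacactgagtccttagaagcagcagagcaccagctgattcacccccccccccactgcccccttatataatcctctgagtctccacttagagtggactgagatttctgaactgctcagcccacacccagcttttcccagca
Selenop: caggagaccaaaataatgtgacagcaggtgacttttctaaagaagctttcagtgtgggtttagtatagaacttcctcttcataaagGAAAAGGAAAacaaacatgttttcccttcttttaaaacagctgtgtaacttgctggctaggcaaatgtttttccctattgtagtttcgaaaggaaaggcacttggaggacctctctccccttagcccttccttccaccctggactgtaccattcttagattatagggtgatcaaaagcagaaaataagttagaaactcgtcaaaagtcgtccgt
Lig1: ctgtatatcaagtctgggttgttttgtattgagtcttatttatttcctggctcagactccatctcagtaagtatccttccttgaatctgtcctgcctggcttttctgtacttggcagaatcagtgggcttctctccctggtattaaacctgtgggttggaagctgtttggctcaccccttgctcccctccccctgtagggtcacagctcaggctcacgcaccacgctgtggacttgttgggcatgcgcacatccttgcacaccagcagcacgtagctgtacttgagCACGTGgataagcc
Mdn1: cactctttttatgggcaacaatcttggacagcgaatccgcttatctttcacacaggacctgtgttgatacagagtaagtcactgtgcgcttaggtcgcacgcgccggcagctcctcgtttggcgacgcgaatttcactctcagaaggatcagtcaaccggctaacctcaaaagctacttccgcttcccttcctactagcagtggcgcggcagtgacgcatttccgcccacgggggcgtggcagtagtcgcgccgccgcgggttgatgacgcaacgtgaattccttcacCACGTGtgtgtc
Ifit3 holds 2 matches on the opposite strand, read as TTTC spaced by 2 bases, whereas Selenop holds 1 match to the same letters although it belongs to no interferon list. Lig1 and Mdn1, a large ATPase of ribosome assembly that fell in macrophages (-0.72 ± 0.15, adjusted p = 0.0190), each hold CACGTG after the RefSeq start. In the GENCODE annotation the gene start of Lig1, at 13277283, lies past the window shown, and that of Selenop, at 3268547, lies before its window.

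Cluster 2, led by Ly6i, Ccl24, Clec4n and Cd14, had 265 of 11201 genes passing (2.37%), 157 up (1.4%) and 108 down (0.964%). The share that rose was 59.2%, and 44.8% with library size alone, and the count was 55, 25 and 70 without the pair of pool 9, 10 and 11. Without the pairing by pool it was 46. Nos2, the inducible nitric oxide synthase that IFN-γ turns on, was at 27.8, 38.1 and 26.8 CPM in isotype and 222.7, 262.0 and 76.8 CPM in aPD1 tumors (2.46 ± 0.57, adjusted p = 0.0209). The pool 11 tumor was the lowest of the aPD1 tumors and still above all isotype tumors, a pattern that 10.8% of genes tested shared. Arg2, a mitochondrial arginase, rose from 15.8, 10.3 and 13.1 CPM to 57.5, 27.5 and 46.9 CPM (1.70 ± 0.27, adjusted p = 0.00169), and Il15, a cytokine of CD8 T and NK cells, from 12.98, 10.3 and 17.3 CPM to 32.8, 23.6 and 41.4 CPM (1.25 ± 0.22, adjusted p = 0.00596). Slpi, a protease inhibitor, rose by 1.56 and Ptges, which makes prostaglandin E2, by 1.84. Apol7c had 4 isotype and 116 aPD1 UMIs. Fn1, fibronectin, was at 946.6, 1252 and 1363 CPM against 581.6, 524.5 and 629.5 CPM (-1.03 ± 0.24, adjusted p = 0.0217), and Ccl2, which draws monocytes, at 829.8, 923.8 and 1093 CPM against 346.3, 285.6 and 668.7 CPM (-1.22 ± 0.26, adjusted p = 0.0134). Neither gene overlapped between the groups, which held for 8.95% of genes tested in that direction. Ppan (-1.74), Srm (-1.70), Nop58 (-1.35) and Cpne8 (-3.82) fell as in the pooled macrophages, of which this cluster is a part. H2-Aa (0.55) and H2-Eb1 (0.56) rose, and the cell cycle list had 0 of 21 members passing with a median of -0.32. Of the 20 genes named by rule, 16, 9 and 16 passed without the pair of pool 9, 10 and 11, and 14 without the pairing by pool.

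In cluster 5 28 of 10381 genes passed (0.27%), 20 up (0.193%) and 8 down (0.0771%), and the split was 71.4% up and 60.9% with library size alone. Without pool 10 only 2 genes passed, without pool 11 only 4 and without the pairing by pool 6. Klf2, a transcription factor that quiets inflammation in macrophages, was at 54.9, 21.8 and 47.5 CPM against 185.9, 94.9 and 94.9 CPM (1.63 ± 0.29, adjusted p = 0.0190). Sat1, which breaks down polyamines, was at 296.9, 287.3 and 310.5 CPM against 526.6, 489.1 and 506.7 CPM (0.77 ± 0.14), tight within each group. Abcg1, a cholesterol exporter, rose by 1.27, Idh1 by 1.37 and Ifit3 by 1.49, whereas Bop1, a factor of ribosome assembly, was at 18.6, 29.95 and 28.7 CPM against 3.10, 4.01 and 6.94 CPM (-2.50 ± 0.46, adjusted p = 0.0190). Eef1e1 and Srm fell too, each by 1.48.

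Cluster 21, led by Ifit3, Rsad2 and Cxcl10, had 3 of 7578 genes pass (0.0396%), 2 up (0.0264%) and 1 down (0.0132%). Pltp was at 41.4, 18.4 and 41.9 CPM against 166.2, 61.0 and 219.8 CPM (2.06 ± 0.38), Selenop rose by 1.44 and Fn1 was at 237.6, 708.8 and 802.8 CPM against 201.8, 240.1 and 63.7 CPM (-1.78 ± 0.33, adjusted p = 0.0293). Cluster 19, led by Lrmda and Dock4, had 3 of 5104 (0.0588%), 1 up (0.0196%) and 2 down (0.0392%), namely Zfp36l1 up (145.2, 167.8 and 235.9 CPM against 465.5, 558.0 and 786.1 CPM, 1.71 ± 0.33) and Manf and Rps15 down on few UMIs. Neither cluster kept a call without pool 11. In cluster 20, which has no class and is led by Rhox5 and Hmga2, 0 of 7475 genes passed with edgeR (0.0%; 823 at an unadjusted p under 0.05; 13 with DESeq2), and in cluster 27, led by Gpnmb, Mmp12 and Arg1, 0 of 7905 (0.0%; 382 unadjusted; 0 with DESeq2). Pltp fitted at -0.05 and Selenop at -0.82 in cluster 27, where neither passed. Over all tumors of the series Shisal2b, the paper's marker of MC38 cells, was at 97.8 CPM in cluster 20 and at most at 6.56 CPM in any other cluster. Krt8, also among the MC38 markers used here, was at 0.44 CPM in cluster 20 and the collagen gene Col3a1 at 854.4 CPM.

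T and NK cells numbered 271, 84 and 144 in the isotype and 640, 154 and 152 in the aPD1 tumors. Of 9661 genes tested 1 passed (0.0104%), Cpne8, with 608 at an unadjusted p under 0.05, and DESeq2 called 4. Without pool 9, 0 genes passed, Cpne8 included. The 5 genes of lowest p that were higher in aPD1 are given as values only, in the order of p. Tspo, a mitochondrial membrane protein, was at 196.1, 239.2 and 245.8 CPM against 348.6, 435.2 and 389.6 CPM (0.78 ± 0.17, adjusted p = 0.147). Pttg1, securin, was at 59.8, 36.1 and 98.7 CPM against 150.7, 88.3 and 161.8 CPM (1.07 ± 0.23, adjusted p = 0.147). Cxcl10, an interferon-induced chemokine, was at 6.96, 9.03 and 0 CPM against 70.2, 39.95 and 3.30 CPM (3.04 ± 0.66, adjusted p = 0.147). Both were higher in each pair but overlapped between the groups. Itm2b was at 223.9, 306.9 and 350.1 CPM against 370.2, 475.1 and 518.4 CPM (0.64 ± 0.15, adjusted p = 0.185), and S100a4 at 559.2, 370.0 and 631.3 CPM against 1014, 702.2 and 1070 CPM (0.84 ± 0.21, adjusted p = 0.267). Tspo, Itm2b and S100a4 did not overlap between the groups, as for 5.78% of genes tested with all aPD1 tumors higher. Ifng, the gene of IFN-γ itself, was at 2018, 852.9 and 603.4 CPM against 707.0, 4213 and 239.4 CPM. It was higher after aPD1 in pool 10 alone (-0.30 ± 0.52, adjusted p = 0.988), and Ccl3 (2017, 685.9 and 1156 CPM against 799.4, 3328 and 567.9 CPM) had the same order between pairs. Cluster 13, led by Il2, Ifng and Xcl1, held 65, 5 and 20 isotype cells and 13, 22 and 5 aPD1 cells. Its cell number thus also rose in pool 10 alone, and its part in the sums of Ifng and Ccl3 was not tested. Cd8a was at 368.6, 117.3 and 471.2 CPM against 420.6, 510.9 and 260.9 CPM. Among 18 type I interferon genes measured, 17 had differences above 0 and the median was 0.64 (0.01 over all genes), but none passed, and no member of the other 17 lists passed either.

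The log2 ratio of Cxcl9 to Spp1 UMIs over all cells was 1.33, -0.04 and 0.07 in isotype tumors and 1.45, 2.14 and 0.51 in aPD1 tumors. It was higher in 3 of 3 pairs, by 0.92 ± 1.11 (SD, n = 3 pairs; exact permutation p = 0.25), mostly from pool 10, without which the mean difference was 0.28. Spp1 counted 2353, 7102 and 7902 UMIs in isotype and 2311, 2149 and 2369 in aPD1 tumors, while Cxcl9 counted 5924, 6892 and 8283 against 6330, 9444 and 3385. In pool 11 the ratio was thus higher with fewer UMIs of both genes. The IFN-γ signature of the macrophages, the mean of log2(CPM + 1) over all 18 genes, was 5.28, 5.20 and 4.99 in isotype and 5.89, 5.54 and 5.22 in aPD1 tumors, higher by 0.39 on average with groups that overlapped. It includes Cd27, Cxcr6, Ido1 and Tigit, which the filter on low counts had left out of the fit and of which all but Ido1 are genes of T and NK cells. For the share of macrophages with a high signature, cells were thinned to 1000 UMIs, which left out 330 isotype cells (6.48%) and 520 aPD1 cells (9.64%) as shallower, and a cell was called high in the top 25% of all thinned macrophages of the 48 tumors. High cells made up 26.4%, 25.7% and 18.9% of isotype and 45.1%, 55.0% and 31.8% of aPD1 macrophages. Every aPD1 tumor was above every isotype tumor. T/NK markers in the macrophage sums were higher in aPD1 in 3 of 3 pairs too (12.2, 5.09 and 4.98 CPM against 61.95, 6.96 and 11.5 CPM). CD8 T markers were higher in pools 9 and 10 but not 11 (5.64, 1.16 and 2.02 CPM against 18.2, 2.59 and 1.31 CPM). The score holds Ccl5, Nkg7 and Cd8a, which T and NK cells express, and the part of T and NK cell RNA in it was not tested. The mean difference was 20.3 points ± 8.34 (SD, n = 3 pairs; exact permutation p = 0.25). High is a range of a score and not a cell type, and 12.2% of thinned macrophages lay within 10% of the limit.

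**Figure D4:**
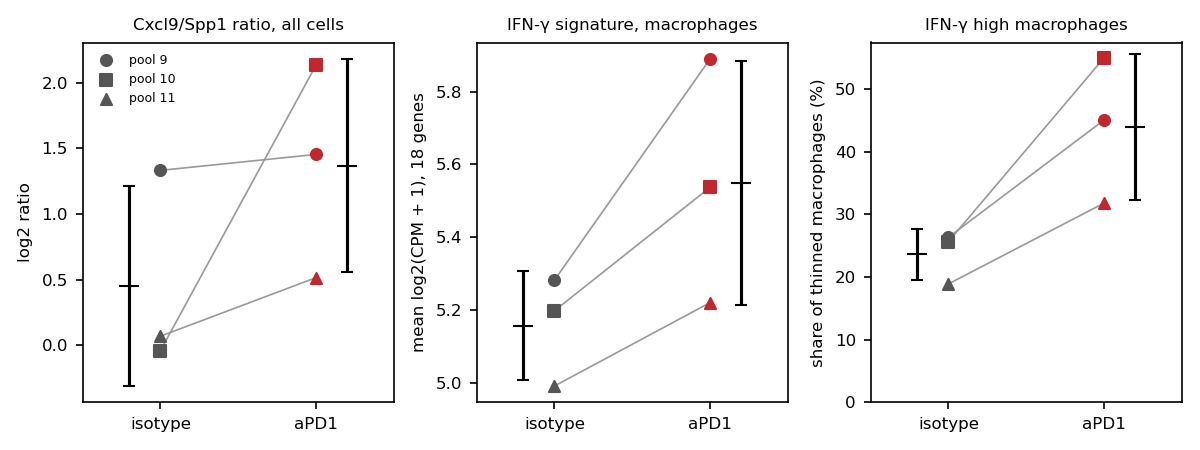
The log2 ratio of Cxcl9 to Spp1 UMIs, the IFN-γ signature of macrophages and the share of thinned macrophages with a high signature (%) in the 3 isotype (grey) and 3 aPD1 (red) CC075 tumors, lines joining pairs and bars giving mean ± SD. Each pair climbs in each panel, and only the third panel has groups that do not overlap (18.9% to 26.4% against 31.8% to 55.0%).

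The aPD1 effect of CC075 was also tested against the mean effect of the 7 other hosts. A gene can pass this test while single other hosts share its change. In macrophages 118 of 13010 genes differed (0.907%), 81 of them with a higher value in CC075, and the count was 28 without the pair block, 73 without pool 9, 14 without pool 10 and 0 without pool 11. It was also 0 from cells of 2000 to 5000 UMIs (1254 at an unadjusted p under 0.05) and 437 with DESeq2. In cluster 26 505 of 12046 genes differed (4.19%), in cluster 2 38 (0.339%), in cluster 5 15 (0.144%), in cluster 21 5 (0.066%), in cluster 19 1 (0.0196%) and in T and NK cells 1 (0.0104%), while clusters 20 and 27 had 0 (0.0%).

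Levels in the 42 other tumors, scaled by library size, show which CC075 group stood apart. The genes compared had a low p for the CC075 effect or its difference from other hosts, so such gaps are partly built into the choice. The share of all genes tested with such a gap was not counted. Macrophage Tbc1d4 lay between 32.6 and 42.0 CPM in the 3 aPD1 tumors of CC075 and at most at 13.95 CPM in the 21 other aPD1 tumors, whereas its isotype levels in CC075 (12.5 to 14.7 CPM) lay within those of the other hosts (5.06 to 24.02 CPM). The aPD1 tumors of CC075 were above all 21 others also for Rilpl2 (100.7 to 134.3 against 0 to 85.1 CPM), Zfp36l1 (315.1 to 370.0 against 150.4 to 311.5 CPM), Cd300a, Dclre1c, Leprot, N4bp2l1 and Zswim4. Srm stood below all 21, at 12.3 to 19.4 CPM against 21.5 to 76.0 CPM. For Tbc1d4, Rilpl2 and Srm it was the aPD1 side of CC075 that left the range of other tumors given the same antibody. A CC002 isotype tumor, however, had Srm at 16.96 CPM, within the CC075 aPD1 levels. The isotype levels of Zfp36l1 in CC075 were also low, at 147.4 to 190.4 CPM against 169.3 to 390.3 CPM. Cpne8 was the reverse, since isotype tumors of CC075 held 12.6 to 34.3 CPM and the other 21 isotype tumors 0.446 to 7.24 CPM, while the CC075 aPD1 tumors (1.34 to 2.61 CPM) lay within the others (0.199 to 21.5 CPM). The upper value is that of 1 CC007 tumor with 53 cells, without which the highest was 8.86 CPM, and the same tumor set the 0 of Rilpl2, the next value being 36.1 CPM. That tumor also set the 21.5 CPM of Srm, the next value being 23.1 CPM. The CC075 effect on Cpne8 minus the mean of the other hosts was -2.82 (adjusted p = 0.00825) in macrophages and -4.88 (adjusted p = 5.19e-05) in T and NK cells. The T and NK difference no longer passed without pool 9, and in the cells of 2000 to 5000 UMIs, where it was -4.35, its SE could not be estimated (adjusted p = 1.0). In macrophages it was -3.17 in those cells (adjusted p = 0.0627). In cluster 26 the CC075 effect exceeded that of the other hosts for Fam214a (2.12), Pltp (1.92), Ifit2 (1.90) and Rilpl2 (1.74) and was below it for Cdkn3 (-1.85) and Myc (-1.76). Of the gene lists there, 12 of 21 cell cycle genes, 5 of 19 type I interferon genes and 3 of 12 MHC class II genes differed from the other hosts. In the cells of 2000 to 5000 UMIs these counts were 0 of 21, 0 of 19 and 4 of 10, and the difference passed for 59 genes in all, beside 505 in all cells and 24 without pool 11.

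**Figure D5:**
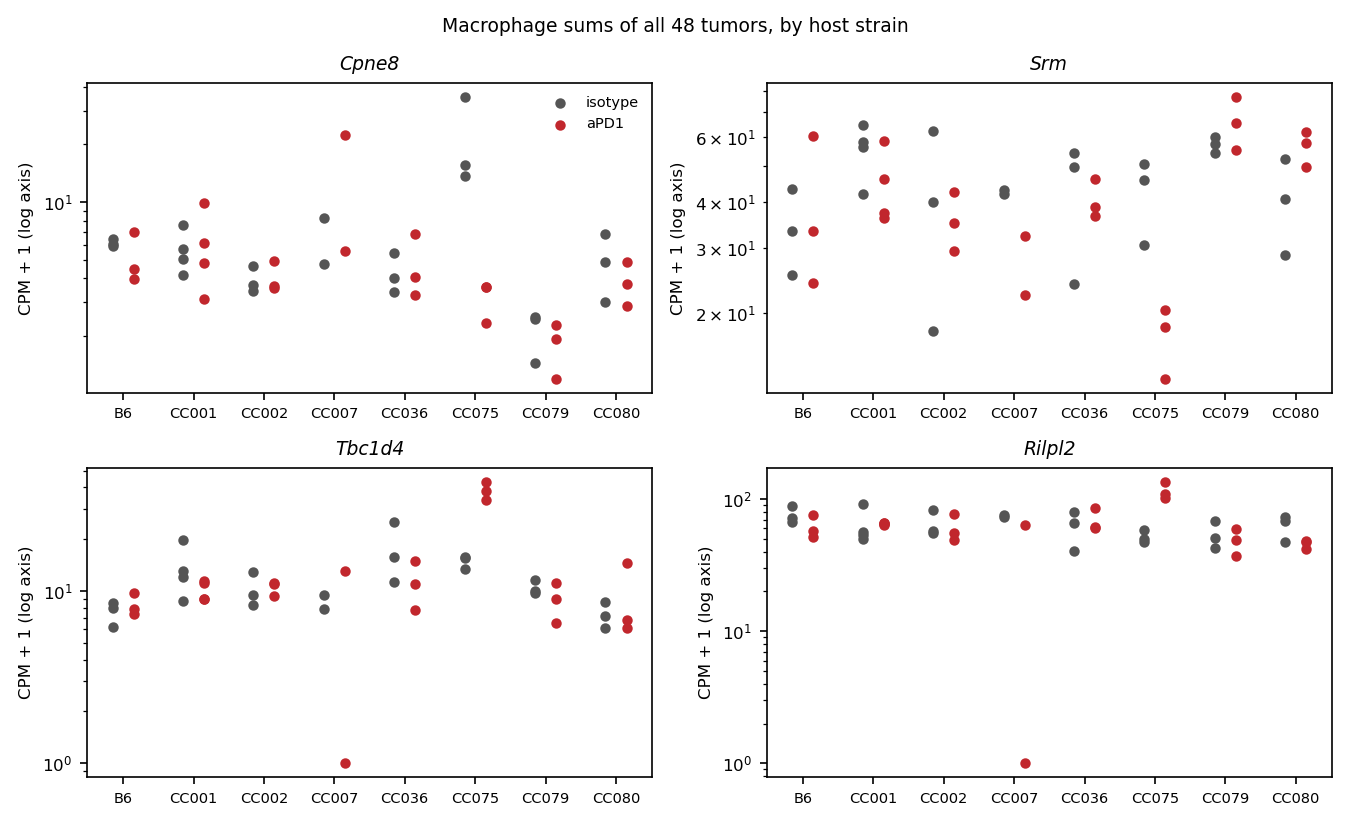
Macrophage levels of Cpne8, Srm, Tbc1d4 and Rilpl2 (CPM + 1, log axes) in each of 48 tumors by host, isotype in grey and aPD1 in red. Among isotype tumors those of CC075 stand apart for Cpne8, and among aPD1 tumors those of CC075 stand apart for the other 3 genes. Across antibodies there is overlap, with a CC007 aPD1 tumor at 21.48 CPM for Cpne8 and a CC002 isotype tumor at 16.96 CPM for Srm. That CC007 tumor, which also gives the point at 0 CPM, has few cells.

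The T/NK share of CC075 had the highest mean pair difference of the 8 hosts, at 6.88 points (2.14 without pool 9). Only CC001 (1.12 points) had a mean above 0 among the others, which ran from -11.1 points in CC036 to -2.77 in CC007. Ranges of single pairs overlapped between hosts, from 0.432 to 16.3 points in CC075 and from -6.72 to 9.40 points in CC001. They were wide, from -40.5 to 3.80 points in CC036, and a CC007 pair holds an aPD1 tumor of 53 cells. The mean difference of the macrophage share was -6.54 points in CC075 (0.645 without pool 9), 12.96 points in CC036 and -2.96 points in CC007, and neither order of hosts was tested.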

How the data were processed

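Single-cell RNA-seq UMI counts per gene and cell were deposited by the authors with a cell table that gives strain, antibody, pool, hashtag and cluster. Per the submitters' processing notes reads were processed with Cell Ranger on GRCm38 (mm10) and cells with Seurat 5.0.1. The authors removed cells above their limits of mitochondrial and ribosomal counts, regressed the cell cycle and integrated batches with harmony before clustering. No doublet step is stated in the sources used here and no doublet caller was run, so doublets may remain. Deposited counts were summed per tumor and cluster, or per class of clusters named from marker genes, and sums of under 20 cells were left out. Sums were fitted with edgeR 4.0.16 (R 4.3.3; TMM, filterByExpr, quasi-likelihood test, Benjamini-Hochberg threshold 0.05) with a block per strain and pool and an antibody effect per strain. Pairs come from the library (pool) that the labels name, since both tumors of a pair shared 1 library. Deviations of the 2 tumors of a pool correlated at 0.057, 0.005 and 0.193 in macrophages, and those of tumors of different pools at -0.21 to 0.14. DESeq2 1.42.0 was an alternative, beside other scalings, no filter, no block, CC075 alone, tumors of 500 cells or more and leaving out each pair. Shares were compared with exact sign-flip tests and with edgeR on cells per cluster. Total depth per tumor was 5591651 to 9338916 UMIs, and counting error is smallest for the pooled macrophages. Genes were named by rule. Among genes with a mean of at least 10 CPM, an adjusted p of at most 0.05 and 1 direction in all 3 pairs, these were the 10 of lowest p that rose and the 10 that fell. Where none passed, they were the 5 of lowest p in each direction, as values. Of each of 18 gene lists they were up to 4 members of highest mean CPM and any member that passed. Further genes that are named were chosen after their values were seen. The tumors, gene lists and rules were chosen with earlier results of these data known. Scripts were tested on simulated data.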

Additional observations from a re-analysis of the deposited data

Results flagged for a closer look

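The antibody effect in CC075 differed from the mean effect of the 7 other hosts for 118 genes in macrophages (0.907% of genes tested), 38 in cluster 2 (0.339%), 15 in cluster 5 (0.144%), 1 in cluster 19 (0.0196%), 5 in cluster 21 (0.066%), 505 in cluster 26 (4.19%) and 1 in T and NK cells (0.0104%; edgeR, difference of effects, adjusted p of at most 0.05). The values that follow are log2 effects in CC075 minus that mean, for the named genes that passed.

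In macrophages the CC075 effect was higher for Tmem176b (1.94), Tbc1d4 (1.53), Rilpl2 (1.37), Dclre1c (1.22), Zfp36l1 (1.14), Zbtb20 (1.06), N4bp2l1 (1.01), 2410006H16Rik (0.93), Zswim4 (0.80) and Gdpd3 (0.65). It was lower for Cpne8 (-2.82), Qpct (-1.86), Srm (-1.25), Ccnd2 (-1.10), Tmem273 (-1.06), Umps (-0.91), Dkc1 (-0.91), Nsd2 (-0.82), Mdn1 (-0.73) and Ptpn7 (-0.64). None of these 20 differences passed without pool 11 or in cells of 2000 to 5000 UMIs, where edgeR called 0 genes (1413 and 1254 at an unadjusted p under 0.05). In T and NK cells Cpne8 stood at -4.88, a difference that did not pass without pool 9 or in cells of 2000 to 5000 UMIs, where that of Cpne8 in macrophages was -3.17 (edgeR adjusted p = 0.0627).

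In cluster 2 it was higher for Trf (1.53), Pltp (1.499), Klhl24 (1.28), Dclre1c (1.19) and Rilpl2 (1.16), and lower for Cpne8 (-4.08), Qpct (-2.25), Srm (-1.56), Nop58 (-1.38) and Idh3a (-1.19). In cluster 26 it was higher for Fam214a (2.12), Pltp (1.92), Rilpl2 (1.74), Selenop (1.60) and 2410006H16Rik (1.23), and lower for Cdkn3 (-1.85), Myc (-1.76), Ccnd2 (-1.44), Lsm2 (-1.37) and Tcof1 (-0.96). The same hashtags lay on the same sides in 9 pairs of 4 other hosts, where macrophage Tbc1d4 was at 6.37 to 13.95 CPM in aPD1 tumors and Cpne8 at 2.68 to 6.58 CPM in isotype tumors, against 32.6 to 42.0 CPM and 12.6 to 34.3 CPM in CC075.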

How the results depend on the processing

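Counts of genes that passed depended on the fit. Without the replicate block, which pairs tumors by pool, they were 62 in macrophages (28 for the difference from the other hosts), 46 in cluster 2, 6 in cluster 5 and 335 in cluster 26. From the 6 CC075 tumors alone they were 42 in macrophages, 2 in T and NK cells, 10, 130, 1, 369 and 1 in clusters 5, 19, 21, 26 and 27. Without a filter on low counts they were 1101 (difference 895) in macrophages, 28 (19) in T and NK cells, and 557, 147, 54, 39, 77 and 15 in clusters 2, 5, 19, 20, 21 and 27. DESeq2 gave 689 (437) in macrophages, 4 in T and NK cells, and 54, 27, 13 and 11 in clusters 5, 19, 20 and 21. Size factors of DESeq2 in edgeR gave 1 in cluster 19 and 9 in cluster 21, and tumors of 500 cells or more gave 44 in cluster 5 and, for the difference from the other hosts, 48 in macrophages and 3 in T and NK cells. Cells of 2000 to 5000 UMIs, chosen after seeing the data, gave 26 (difference 0) in macrophages and 102 in cluster 26. In T and NK cells they gave a difference of 0. Other single clusters were not fitted in this range.

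Leaving out 1 pair gave 14 to 180 genes in macrophages (difference 0 to 73), 0 to 3 in T and NK cells (difference 0 to 1), 25 to 70 in cluster 2, 2 to 30 in cluster 5, 0 to 17 in cluster 19, 0 to 18 in cluster 21 and 54 to 861 in cluster 26. Share differences then ran from -10.7 to 0.645 points for macrophages (0.645 without pool 9), from -0.372 (without pool 9) to 0.684 for cDC1, from -2.27 to 1.32 (without pool 10) for cDC2 and from -0.342 (without pool 9) to 0.575 for plasmacytoid dendritic cells, with -0.132 without pool 11. For clusters 3 and 13 together they ran from 1.07 to 3.996 points. The granulocytic difference was 0.144 points among cells of 1000 UMIs or more. The T/NK difference kept its direction (2.14 to 10.1 points), as did the log2 Cxcl9 to Spp1 ratio (0.28 to 1.31). The cause of these shifts was not tested. Over single named genes and settings, 628 values kept their side of the threshold, 6 crossed to pass, 101 no longer passed and 0 reversed. With 3 pairs, no share can reach an exact p under 0.25, and whether tumors of a strain are independent samples beyond the mouse is not stated.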
